A study of Homo sapiens with 6 samples.

Results

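Interleukins and colony-stimulating factors are secreted proteins through which cells signal inflammation and growth. The genes described here are IL1A, IL1B, IL6, IL11, IL18, LIF, CSF1, CSF2, CSF3 and TNF. They were taken by symbol from a table of read counts, and all 10 were found among its 62700 genes. RNA carrying poly(A) tails was sequenced from SAS, a human line established from a squamous cell cancer. Of 6 libraries, 3 came from cells given an siRNA against IGF2BP1 (siIGF2BP1, labelled as an IGF2BP1 knockdown) and 3 from cells given a control siRNA (siC, labelled as wild type). IGF2BP1 binds mRNAs and is known to protect a number of them from decay, and the series asks whether it shields the coactivator YAP1 from repression by Hippo signalling. Neither the sequence of the siRNA, nor whether it was 1 siRNA or a mixture, nor whether the replicates were separate cultures is stated. The p-values therefore reflect library-to-library spread, part or all of which may be technical. No time of harvest and no stimulus of the cells is stated in the labels.

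The cytokines belong to several receptor systems. IL1A and IL1B bind the same receptor and signal through the adaptor MYD88 to the transcription factor NF-kB, and IL18 uses a related receptor. IL6, IL11 and LIF each bind a receptor of their own and share the signalling subunit gp130, encoded by IL6ST, which activates STAT3. CSF1, CSF2 and CSF3 drive the production and survival of macrophages and granulocytes, and TNF acts through the receptors TNFRSF1A and TNFRSF1B. Transcripts of many cytokines are short-lived because AU-rich elements in the 3′ untranslated region (3′ UTR), built from repeats of the pentamer ATTTA, are bound by proteins that trigger or block decay. Squamous epithelial cells and carcinomas derived from them are known to secrete several of these cytokines.

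The AU-rich stretches are shown because they are the sequence feature these transcripts are best known for sharing, and the choice of genes did not use it. In 1 annotated transcript per gene (GENCODE release 29), 9 of the 10 3′ UTRs held at least 1 ATTTA, counted with overlaps, and IL18 held 0. Each line gives the 30-base window with the most ATTTA, 5′ to 3′ on the transcript's strand and written as DNA, with ATTTA in capitals.
IL6: tatttttaATTTAttaatATTTAaatatgt
LIF: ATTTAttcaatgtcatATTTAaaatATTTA
IL11: ccagatcttATTTATTTATTTAtttcagta
CSF1: taaagtcATTTAaatatctATTTAaaagat
CSF2: aaaatATTTATTTATTTATTTATTTAagtt
CSF3: atgtATTTAtctctATTTAatATTTAtgtc
IL1A: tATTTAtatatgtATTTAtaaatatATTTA
IL1B: cgcttccctATTTATTTATTTAtttgtttg
TNF: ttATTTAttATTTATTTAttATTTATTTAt
On GRCh38 these windows lie at chr7:22731704-22731733 (IL6, plus strand), chr22:30240522-30240551 (LIF, minus), chr19:55365943-55365972 (IL11, minus), chr1:109930917-109930946 (CSF1, plus) and chr5:132076076-132076105 (CSF2, plus). The others lie at chr17:40016979-40017008 (CSF3, plus), chr2:112774424-112774453 (IL1A, minus), chr2:112829995-112830024 (IL1B, minus) and chr6:31578000-31578029 (TNF, plus). The density was highest in CSF2, at 25.2 ATTTA per kilobase of 3′ UTR, followed by IL6 with 6 copies in 429 bases, TNF at 11.3 per kilobase and IL1B at 9.84. It was lowest among the 9 in LIF (2.18) and CSF1 (1.86), where 7 and 4 copies lie in UTRs of 3204 and 2154 bases. Over the 3′ UTRs of the 11695 tested protein-coding genes that could be matched, the density was 2.14 per kilobase. The stricter nonamer TTATTTATT was found in IL1B, LIF, IL11, CSF2 and TNF, 5 of 10 genes, and in 8.05% of the matched 3′ UTRs. A match of letters is a description and shows no binding.

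Library totals ran from 17918496 to 25926371 counted reads in siIGF2BP1 and from 23775889 to 26675064 in siC. IGF2BP1 itself had 29, 25 and 21 reads in siIGF2BP1 libraries 1 to 3, against 185, 223 and 292 in siC (log2 fold change -3.07, SE 0.30, adjusted p = 4.56e-06 by edgeR's quasi-likelihood test), which checks the labels. All 13 squamous epithelial markers were measurable, among them KRT14, KRT17 and TP63. After knockdown 6 of the 13 were lower, against 6.66% of all tested genes, with KRT5 at -2.91. The other 7 were not called, among them KRT17 and SFN (edgeR adjusted p = 0.952 and 0.841). The summed level of the 13 was 13031 to 13961 CPM in siIGF2BP1, against 23666 to 25614 CPM in siC. The largest part of it was KRT8, at 4963 ± 54.0 CPM in siIGF2BP1 and 8460 ± 257 CPM in siC (SD, n = 3 each). KRT18 followed, at 2600 ± 283 CPM in siIGF2BP1 and 6222 ± 359 CPM in siC (SD, n = 3 each). Of 11 leukocyte markers 6, including PTPRC, had 0 reads, 2 were tested, and the summed level was 12.5 to 15.1 CPM in siIGF2BP1, against 17.5 to 19.1 CPM in siC. Most of this sum was CD14, at 13.1 ± 1.04 CPM in siIGF2BP1 and 17.8 ± 0.728 CPM in siC (SD, n = 3 each). Of 11 fibroblast markers 5, including COL3A1 and DCN, had 0 reads and 4 were tested. FBLN1 and PDGFRB were called higher (edgeR adjusted p = 0.0312 and 0.0491), against 6.27% of all tested genes. DESeq2 did not call PDGFRB (adjusted p = 0.0524). The fibroblast sum was 178 to 211 CPM in siIGF2BP1, against 142 to 165 CPM in siC. Most of it was FBLN1, at 191 ± 17.5 CPM in siIGF2BP1 and 148 ± 11.3 CPM in siC (SD, n = 3 each). The PDGFRB call ended without any 1 of the 6 libraries (0.0706 to 0.186), and that of FBLN1 without siIGF2BP1 library 1 or 3 or siC library 1, 2 or 3 (0.0523 to 0.155). Of 8 endothelial markers 3 had 0 reads and 3 were tested, with a sum of 6.61 to 14.2 CPM in siIGF2BP1, against 6.33 to 8.56 CPM in siC. By edgeR 0 leukocyte and 0 endothelial markers were called, and DESeq2 also called 0 of each. At an unadjusted p under 0.05, 1 leukocyte marker (CD14) was lower and 0 endothelial markers differed. The part of these marker levels in the results below was not tested. In such bulk samples, fewer cells making a transcript and less of it per cell cannot be told apart.

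IL6, CSF1, IL1B and LIF fell after IGF2BP1 knockdown, while IL11 and CSF2 rose. IL1A, CSF3 and IL18 were not called, and TNF was too low to test. CPM here is the read count per 1000000 reads of the library, scaled by TMM (trimmed mean of M-values), and a gene was called at a Benjamini-Hochberg adjusted p under 0.05 over all 14649 tested genes. Of the 9 cytokine genes tested, 2 were called higher and 4 lower, against 6.27% of all tested genes called higher, 6.66% called lower and 12.9% called in either direction. Those shares include genes at low counts, where calls are harder to make. In a fit to the 8163 genes with at least 5 CPM in 3 libraries, 973 were called higher and 931 lower. All 9 cytokine genes passed that filter, again with 2 higher and 4 lower. The median log2 fold change was -0.51 over the 9 genes and 0.03 over all tested genes. The groups did not overlap for 7 of the 9, and for 30.7% of all tested genes. Within siIGF2BP1, library 3 was the highest for 6 of the 9 genes and the lowest for 0 of them.

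**Figure D1:**
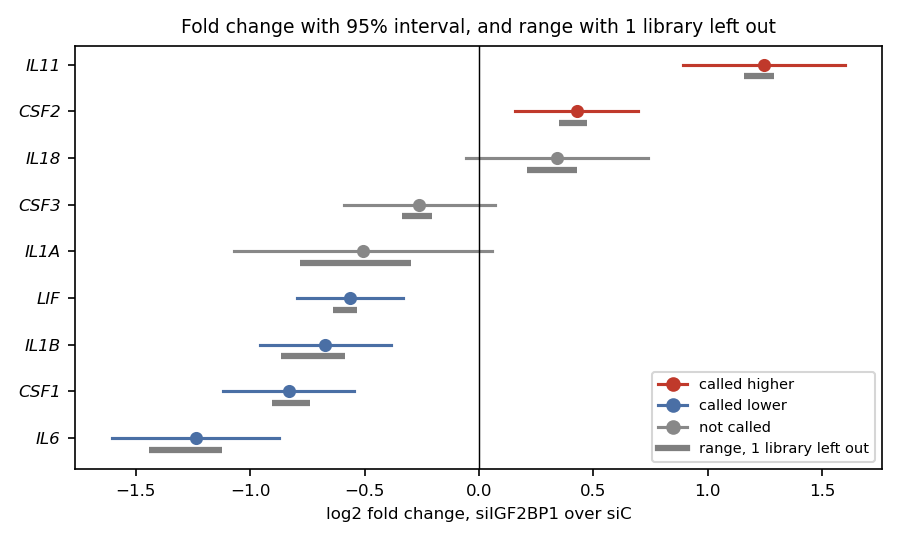
Log2 fold change (siIGF2BP1 over siC) of the 9 tested cytokine genes, with points for the fit to all 6 libraries, coloured lines for the 95% interval and thick grey bars for the range over fits that leave out 1 library. IL11 (1.25) and IL6 (-1.24) lie at opposite ends, and the intervals of IL18, CSF3 and IL1A cross 0.

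The gp130 ligands moved in opposite directions. IL6 (ENSG00000136244; GRCh38 chr7:22725884-22732002, plus strand), the pleiotropic cytokine of fever and the acute phase, had 11.1, 12.4 and 16.9 CPM in siIGF2BP1 libraries 1 to 3, against 29.9, 31.7 and 34.2 CPM in siC libraries 1 to 3. The highest knockdown library stood well under the lowest control, and the fitted level was 42.4% of control (log2 fold change -1.24, SE 0.17, adjusted p = 1.51e-04). In GENCODE 29, genes on the opposite strand share 20.7% of the exon bases of IL6, among them STEAP1B. The deposited length of IL6 is 4321 bases, against 2069 exon bases in GENCODE 29. The shared part of the counted gene model is therefore not known. The strand setting of the counting is not given in the sources used here, so the IL6 counts carry both uncertainties. STEAP1B itself had 32 reads in siIGF2BP1 and 59 in siC, and no count was read here for AC073072.1, the other of these genes.

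LIF (ENSG00000128342; chr22:30240447-30246851, minus strand), which maintains stem cell states and acts on many tissues, was the most abundant of these transcripts in reads. It had 107, 90.7 and 98.4 CPM in siIGF2BP1 libraries 1 to 3, against 150, 155 and 133 CPM in siC libraries 1 to 3. The groups were again separate, with a smaller fold (log2 fold change -0.56, SE 0.11, adjusted p = 0.00243) and a fitted level of 67.7% of control. Genes on the opposite strand share 6.73% of its exon bases. Of these LIF-AS1 had 1 read in siIGF2BP1 and 2 in siC, and no count was read here for the other, AC004264.1.

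IL11 (ENSG00000095752; chr19:55364389-55370463, minus strand), a cytokine linked to epithelial repair and fibrosis, went the other way. It had 24.5, 21.2 and 25.5 CPM in siIGF2BP1 libraries 1 to 3, against 10.6, 9.0 and 10.3 CPM in siC libraries 1 to 3. All knockdown libraries stood well above all controls, and the fitted fold was 2.37 (95% interval 1.85 to 3.03; log2 fold change 1.25, SE 0.17, adjusted p = 1.08e-04).

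Shares within a library do not depend on the scaling between libraries. The 3 shares of a family add up to the whole, so a change in 1 gene also moves the shares of the others. Counted per kilobase, IL11 made up 23.6 ± 0.760% of the reads of IL6, LIF and IL11 in siIGF2BP1, against 7.67 ± 0.917% in siC (SD, n = 3 each). IL6 made up 8.34 ± 1.79% in siIGF2BP1, against 15.2 ± 1.70% in siC, and LIF 68.1 ± 2.46%, against 77.1 ± 2.33% (SD, n = 3 each). For each of these 3 shares the groups did not overlap, and a two-sided exact permutation test gave p = 0.1 (adjusted 0.113 over 9 shares), the smallest p that 3 libraries against 3 allow. The deposited length of IL6, 4321 bases, is more than its 2069 exon bases in GENCODE 29. With GENCODE 29 lengths the IL6 share was 16.2 ± 3.17% in siIGF2BP1 and 27.6 ± 2.62% in siC, and that of IL11 22.0 ± 0.419% and 6.70 ± 0.749% (SD, n = 3 each), still with no overlap (exact permutation p = 0.1, adjusted 0.129 over 9 shares). The LIF share was then 61.8 ± 3.37% in siIGF2BP1 and 65.7 ± 3.01% in siC (SD, n = 3 each), and its groups overlapped (exact permutation p = 0.2, adjusted 0.225), so the separation of LIF depends on the gene lengths used.

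**Figure D2:**
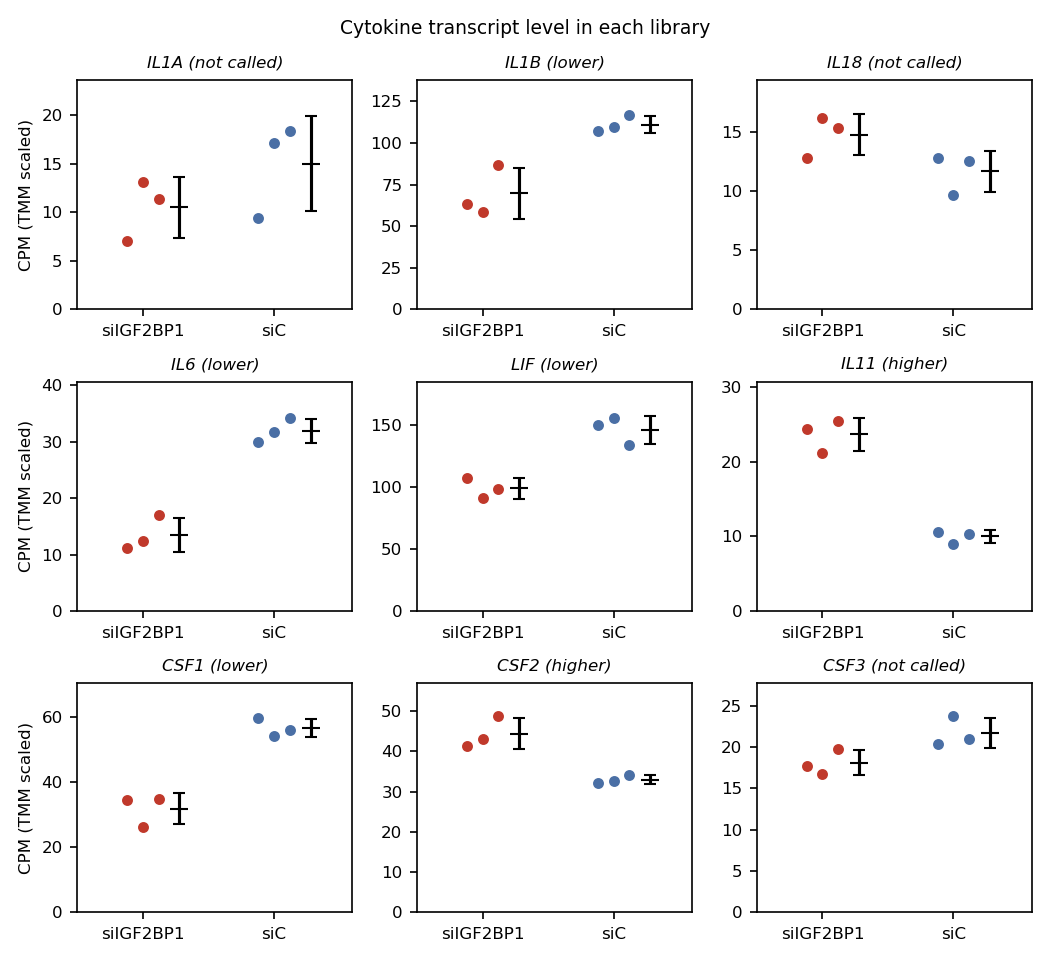
TMM-scaled CPM of the 9 tested cytokine genes in each library, siIGF2BP1 (red) left of siC (blue), with the mean and SD of 3 libraries in black; axes start at 0 and differ between panels. IL6 is below 17 CPM in each siIGF2BP1 library and above 29 CPM in each siC library, and IL11 above 21 and below 11 CPM.

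The promoters of IL6 and IL11, the genes with the largest fall and the largest rise of the 9, are shown for comparison. RefSeq sequences (GRCh38.p14) matched 6 of the 10 genes: IL1A, IL1B, IL6, IL11, CSF2 and TNF. Each line gives the 250 bases before the RefSeq transcription start, 5′ to 3′ on the gene's strand.
IL6: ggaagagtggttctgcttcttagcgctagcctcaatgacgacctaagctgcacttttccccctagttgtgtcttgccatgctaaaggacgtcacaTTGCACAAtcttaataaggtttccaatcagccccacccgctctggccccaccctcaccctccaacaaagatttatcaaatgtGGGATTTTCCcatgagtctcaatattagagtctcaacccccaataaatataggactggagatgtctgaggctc
IL11: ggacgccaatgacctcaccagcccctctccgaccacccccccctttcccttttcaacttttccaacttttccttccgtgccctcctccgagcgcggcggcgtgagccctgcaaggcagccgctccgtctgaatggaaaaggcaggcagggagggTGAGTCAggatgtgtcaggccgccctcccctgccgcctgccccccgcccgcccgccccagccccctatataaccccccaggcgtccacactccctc
Capitals mark matches on either strand to 5 motifs searched: the NF-kB consensus, AP-1 (TGANTCA), C/EBP (TTGCNNAA), TEAD (GGAATG) and the cyclic AMP response element (TGACGTCA). The IL6 stretch (chr7:22726950-22727199, plus strand) held the NF-kB match GGGATTTTCC from base -73 to base -64 and a C/EBP match from -155 to -148. The IL11 stretch (chr19:55370464-55370713, minus strand) held an AP-1 match from -96 to -90. These matches do not overlap each other. The IL6 stretch lies within the gene span given above, because GENCODE 29 also holds a transcript of IL6 that starts further upstream. Among 27305 promoters of the same length, 1 per gene symbol, 9.57% held the NF-kB consensus, 6.60% AP-1, 9.13% C/EBP, 11.9% TEAD and 1.77% the cyclic AMP response element. Among the 10340 of these that belong to tested genes, the shares were 12.04%, 4.22%, 5.99%, 9.39% and 2.93% in the same order. IL1B held a C/EBP match. Of 2 overlapping IL1A stretches, for 2 start sites, the first held 1 AP-1 match and the second held the same match and another, and the stretches of CSF2 and TNF held 0 matches to the 5 motifs. These are matches of letters, and no binding was measured.

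Colony-stimulating factors divided too. CSF1 (ENSG00000184371; chr1:109910242-109930992, plus strand), the growth factor of monocytes and macrophages, had 34.3, 26.2 and 34.6 CPM in siIGF2BP1 libraries 1 to 3, against 59.5, 54.0 and 55.8 CPM in siC libraries 1 to 3. Its fitted level was 56.2% of control (log2 fold change -0.83, SE 0.14, adjusted p = 5.72e-04), with no overlap between groups. CSF2 (ENSG00000164400; chr5:132073790-132076170, plus strand), which encodes GM-CSF, a factor for granulocytes and macrophages, had 41.3, 43.0 and 48.7 CPM in siIGF2BP1, against 32.2, 32.6 and 34.2 CPM in siC. All knockdown libraries were above all controls, but the rise was small (fold 1.34, 95% interval 1.12 to 1.62; log2 fold change 0.43, SE 0.13, adjusted p = 0.0348). Its call ended when 1 library was left out in 5 of 6 cases: the adjusted p was 0.0618 without siIGF2BP1 library 2, 0.163 without siIGF2BP1 library 3, and 0.134, 0.122 and 0.0760 without siC libraries 1, 2 and 3, with log2 fold changes of 0.35 to 0.44.

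CSF3 (ENSG00000108342; chr17:40015361-40017813, plus strand), which encodes the granulocyte factor G-CSF, had 17.8, 16.8 and 19.8 CPM in siIGF2BP1 libraries 1 to 3, against 20.4, 23.8 and 21.0 CPM in siC. The groups did not overlap, by a narrow margin, and the gene was not called (log2 fold change -0.26, 95% interval -0.59 to 0.07, adjusted p = 0.323). Per kilobase, CSF2 made up 79.8 ± 1.49% of the reads of the 3 factors in siIGF2BP1, against 67.1 ± 1.12% in siC, and CSF1 8.59 ± 1.16%, against 17.3 ± 1.08% (SD, n = 3 each). CSF3 made up 11.6 ± 0.333% in siIGF2BP1, against 15.7 ± 1.28% in siC (SD, n = 3 each). The exact permutation p was 0.1 for each of these shares (adjusted 0.113), the smallest possible here.

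**Figure D3:**
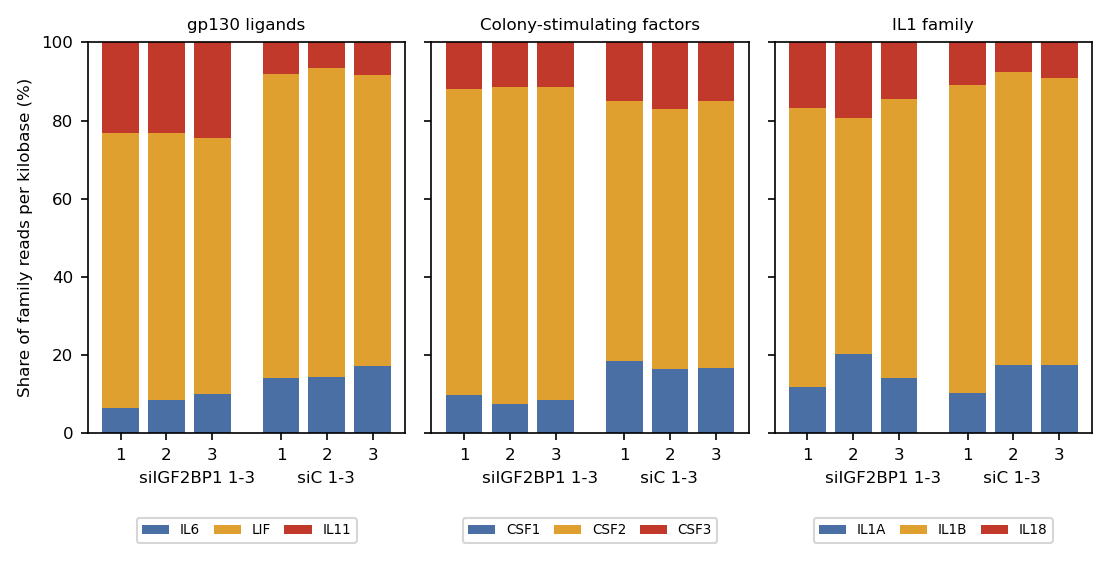
Share of each gene in the per-kilobase reads of its family (percent), in siIGF2BP1 libraries 1 to 3 (left bars) and siC libraries 1 to 3 (right bars). The red IL11 segment is about 23 to 24% in siIGF2BP1 and 7 to 8% in siC, and the blue CSF1 segment is below 10% in siIGF2BP1 and above 16% in siC.

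In the IL1 family, IL1B fell and its neighbour IL1A was not called. IL1B (ENSG00000125538; chr2:112829751-112836903, minus strand), made as a precursor that caspase-1 cleaves, had 63.5, 58.6 and 86.9 CPM in siIGF2BP1 libraries 1 to 3, against 107, 109 and 117 CPM in siC libraries 1 to 3. Library 3 stood apart within siIGF2BP1 yet below all controls (fitted level 62.8% of control; log2 fold change -0.67, SE 0.14, adjusted p = 0.00328). IL1A (ENSG00000115008; chr2:112773915-112784590, minus strand), which is active without cleavage and often kept in the cell, had 7.04, 13.1 and 11.4 CPM in siIGF2BP1, against 9.38, 17.2 and 18.4 CPM in siC. The groups overlapped, and library 1 was the lowest of each group (log2 fold change -0.51, 95% interval -1.07 to 0.05, adjusted p = 0.248). Without siC library 1 the value was -0.78 (adjusted p = 0.0579), still not called, and without siIGF2BP1 library 1 it was -0.30. With the replicate number as a block in the fit, the log2 fold change was -0.50 (edgeR adjusted p = 0.0634), also not called.

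IL18 (ENSG00000150782; chr11:112143251-112164117, minus strand), another caspase-1 substrate that epithelia store as a precursor, had 12.8, 16.2 and 15.3 CPM in siIGF2BP1, against 12.8, 9.65 and 12.5 CPM in siC. One knockdown library lay within the control range, and the gene was not called (log2 fold change 0.34, 95% interval -0.06 to 0.74, adjusted p = 0.275). As a share of the family's reads per kilobase, IL18 made up 16.8 ± 2.38% in siIGF2BP1, against 9.22 ± 1.65% in siC, and IL1B 67.8 ± 6.34%, against 75.7 ± 2.71% (SD, n = 3 each; exact permutation p = 0.1 for both, adjusted 0.113). IL1A made up 15.3 ± 4.35% in siIGF2BP1, against 15.1 ± 4.11% in siC (SD, n = 3 each; exact permutation p = 1). TNF (ENSG00000232810; chr6:31575567-31578336, plus strand), the founding ligand of its superfamily, had 0 reads in all 3 siIGF2BP1 libraries and 0, 0 and 1 in siC libraries 1 to 3. With 3 reads corresponding to 0.115 to 0.165 CPM per library, a difference in TNF was not detectable at this depth.

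Per kilobase of the deposited gene length, CSF2 was the most abundant of the transcripts, at 56.3 ± 4.91 CPM per kilobase in siIGF2BP1 and 41.9 ± 1.34 in siC (SD, n = 3 each). LIF followed with 25.5 in siIGF2BP1 and 37.7 in siC, and IL1B with 23.2 and 36.9; the ranges of this pair overlapped in both groups. The other 6 lay between 3.12 (IL6) and 8.86 (IL11) CPM per kilobase in siIGF2BP1 and between 3.73 (IL11) and 10.8 (CSF1) in siC. IL11 held the fourth place in siIGF2BP1, not separate from CSF3, and the ninth in siC, not separate from IL18. In siC the ranges of CSF1 and CSF3 overlapped, as did those of IL1A and IL6; in siIGF2BP1 those of CSF1, IL18, IL1A and IL6 overlapped each with the next. With GENCODE 29 exon lengths IL6 stood at 6.52 CPM per kilobase in siIGF2BP1 and 15.4 in siC, so its place moved to the sixth and the fourth. 

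**Figure D4:**
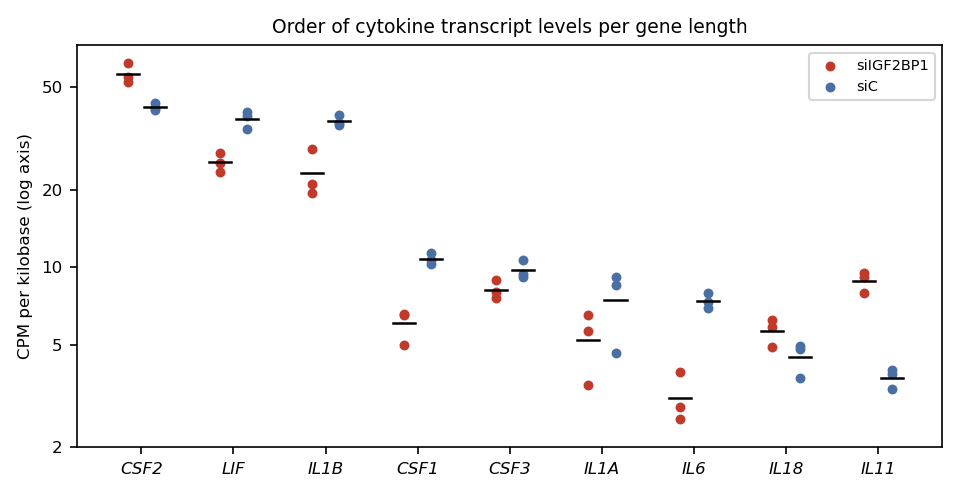
CPM per kilobase of deposited gene length (log axis) for the 9 tested cytokine genes, ordered by the siC mean; points are libraries, siIGF2BP1 (red) left of siC (blue), and bars are means. CSF2, LIF and IL1B lie above 19 CPM per kilobase in each library, and the other 6 below 12.

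Further ligands of these families were partly silent in SAS cells. Of 43 further interleukins and related factors, 20 had 0 reads and 13 were tested, of which 2 rose and 2 fell (median log2 fold change 0.35). Over all tested genes 6.27% were called higher and 6.66% lower. IL32, a cytokine found in humans but not in mice, had 65.2, 62.4 and 62.2 CPM in siIGF2BP1, against 115, 104 and 119 CPM in siC (log2 fold change -0.84, adjusted p = 6.99e-05), and EBI3, a subunit of IL27 and IL35, stood at -1.17 on the log2 scale (adjusted p = 0.0119; 0.0548 without siC library 3). IL24, of the IL10 family, rose to 48.6 ± 4.71 CPM in siIGF2BP1, against 32.1 ± 2.02 CPM in siC (SD, n = 3 each), a log2 fold change of 0.60 (edgeR adjusted p = 0.00529). IL16 rested on 41, 27 and 19 reads in siIGF2BP1, against 10, 10 and 5 in siC (log2 fold change 1.95, adjusted p = 0.0486); its call ended with limma-voom (0.0981) and without siIGF2BP1 library 1 or 2 or siC library 1, 2 or 3 (0.0715 to 0.284). CLCF1, another gp130 ligand, was not called at 36.6, 26.2 and 35.2 CPM in siIGF2BP1 and 34.6, 27.2 and 28.2 CPM in siC (adjusted p = 0.684).

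Of 17 other TNF superfamily ligands, 5 had 0 reads and 8 were tested. Of these 1 was higher and 2 lower (median 0.30), against 6.27% and 6.66% of all tested genes. TNFSF9, the ligand of the costimulatory receptor TNFRSF9, had 4.62, 5.82 and 6.64 CPM in siIGF2BP1, against 24.2, 21.7 and 16.9 CPM in siC (log2 fold change -1.87, adjusted p = 1.42e-05). CD70, the ligand of CD27, fell by 0.58 on the log2 scale (adjusted p = 0.00662). TNFSF12, which encodes TWEAK, stood at 0.68 on the log2 scale (adjusted p = 0.0200); the call ended without siIGF2BP1 library 3 (0.125) and without siC library 1, 2 or 3 (0.0663 to 0.0743).

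Among 16 receptor genes of these systems, 8 were tested, 2 rose and 1 fell (median 0.22), against 6.27% and 6.66% of all tested genes. IL1R2, a decoy receptor that binds IL1 without signalling, rose at low counts, with 67, 68 and 59 reads in siIGF2BP1 libraries 1 to 3, against 5, 9 and 9 in siC (log2 fold change 3.20, SE 0.45, adjusted p = 1.72e-04). IL6R, the receptor chain that binds IL6, rose by 0.59 on the log2 scale (adjusted p = 0.0174), at 29.4 ± 4.18 CPM in siIGF2BP1 and 19.5 ± 1.35 CPM in siC (SD, n = 3 each). OSMR, the receptor chain for oncostatin M, had -0.78 (adjusted p = 0.0157). The IL6R call ended without siIGF2BP1 library 1 or 2 or siC library 1 or 2 (0.0556 to 0.0824), and that of OSMR without siIGF2BP1 library 1 or 3, without siC library 2 or 3 (0.0505 to 0.0964) and with no scaling factor (0.0567). TNFRSF1A, a receptor of TNF, stood at 247 ± 24.7 CPM in siIGF2BP1 and 294 ± 14.7 CPM in siC (SD, n = 3 each; adjusted p = 0.138), and IL6ST, which encodes gp130, at 2.77 ± 0.742 and 1.92 ± 1.52 CPM (SD, n = 3 each; adjusted p = 0.559). CSF3R and IL18RAP had 0 reads.

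Of the antagonists 1 of 4 was called and of the processing genes 3 of 13, against 12.9% of all tested genes. Among the antagonists IL18BP, which neutralises IL18, fell (-0.78, adjusted p = 0.0270; 0.0681 to 0.0821 without siIGF2BP1 library 2 or 3 or siC library 1 or 2), and the IL1 receptor antagonist gene IL1RN was not called at 4.18 ± 1.42 CPM in siIGF2BP1 and 4.25 ± 1.12 CPM in siC (SD, n = 3 each; adjusted p = 0.978). By edgeR 0 antagonists were higher, with 0 at an unadjusted p under 0.05 and 0 by DESeq2. Of 13 tested processing genes (of 17; median 0.15), PYCARD, the inflammasome adaptor, rose to 47.6 ± 5.24 CPM in siIGF2BP1, against 32.7 ± 2.07 CPM in siC (SD, n = 3 each), or 0.54 on the log2 scale (edgeR adjusted p = 0.0110; 0.0717 without siIGF2BP1 library 3 and 0.0700 without siC library 2). RHBDF2, which carries the sheddase ADAM17 to the surface, fell (-0.67, adjusted p = 0.00339). GSDME, a pore-forming gasdermin, was called at 0.39 (adjusted p = 0.0467), but not with RLE scaling (0.0667), no count filter (0.0696) or limma-voom (0.0511), nor with any 1 of the 6 libraries left out (0.0536 to 0.205). CASP1, the IL1B-cleaving caspase, was tested and not called.

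Signalling genes fell in 4 of 20 tested (of 22; median 0.00), against 6.66% of all tested genes, and DESeq2 also called 4 lower. MYD88, the adaptor of the IL1 and IL18 receptors, had 13.5, 9.36 and 13.5 CPM in siIGF2BP1, against 29.4, 26.4 and 27.5 CPM in siC (log2 fold change -1.20, SE 0.17, adjusted p = 2.17e-04). STAT5A and STAT5B, the transcription factors that act after CSF2, had -0.90 (adjusted p = 0.00330) and -0.46 (adjusted p = 0.0209), and the kinase IRAK2 had -0.47 (adjusted p = 0.0182). The call of STAT5B ended without siIGF2BP1 library 3 (0.0678) or siC library 2 (0.0569), and that of IRAK2 without siIGF2BP1 library 3 (0.0558) or siC library 1 (0.0514). STAT3 was not called at 153 ± 14.5 CPM in siIGF2BP1 and 127 ± 9.65 CPM in siC (SD, n = 3 each), or 0.27 on the log2 scale (edgeR adjusted p = 0.123). By edgeR 0 signalling genes were higher, with 2 at an unadjusted p under 0.05 and 0 by DESeq2.

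Genes known to respond to gp130 and STAT3 fell in 5 of 10 tested (of 13; median -0.39), against 6.66% of all tested genes, and DESeq2 called 6 lower. JUNB, an AP-1 subunit, had 293, 249 and 236 CPM in siIGF2BP1, against 583, 570 and 557 CPM in siC (log2 fold change -1.14, SE 0.11, adjusted p = 2.72e-06). LRG1, a secreted glycoprotein of the acute phase, fell by 1.53 on the log2 scale (adjusted p = 5.88e-04). The transcription factor CEBPD (-0.85), the NF-kB cofactor BCL3 (-0.66) and the kinase PIM1 (-0.46) fell as well, with adjusted p-values of 2.23e-04, 0.0112 and 0.00965. SOCS3, the feedback inhibitor of gp130, was not called at 162 ± 11.8 CPM in siIGF2BP1 and 134 ± 0.865 CPM in siC (SD, n = 3 each), or 0.28 on the log2 scale (edgeR adjusted p = 0.0807). By edgeR 0 of these were higher, with 1 at an unadjusted p under 0.05 and 0 by DESeq2.

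Of 16 genes for proteins that act on AU-rich or cytokine mRNAs, all tested, 3 fell (median -0.18), against 6.66% of all tested genes. DESeq2 called 5 lower, and 6 were lower at an unadjusted p under 0.05. ZC3H12A, which encodes Regnase-1, a ribonuclease that degrades IL6 mRNA, had 127, 112 and 127 CPM in siIGF2BP1, against 243, 246 and 242 CPM in siC (log2 fold change -1.0, SE 0.10, adjusted p = 4.95e-06). KHSRP, a decay factor, had -0.47 (adjusted p = 0.0111; 0.0581 without siIGF2BP1 library 3). HNRNPD, which encodes AUF1, had -0.33 (adjusted p = 0.0473), and its call ended with no scaling factor (0.116), without siIGF2BP1 library 3 (0.203) and without siC library 1, 2 or 3 (0.0845 to 0.0903). ELAVL1, which encodes the stabilising protein HuR, was not called at 99.4 ± 4.92 CPM in siIGF2BP1 and 104 ± 7.88 CPM in siC (SD, n = 3 each; adjusted p = 0.781). By edgeR 0 were higher, with 0 at an unadjusted p under 0.05 and 0 by DESeq2.

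**Figure D5:**
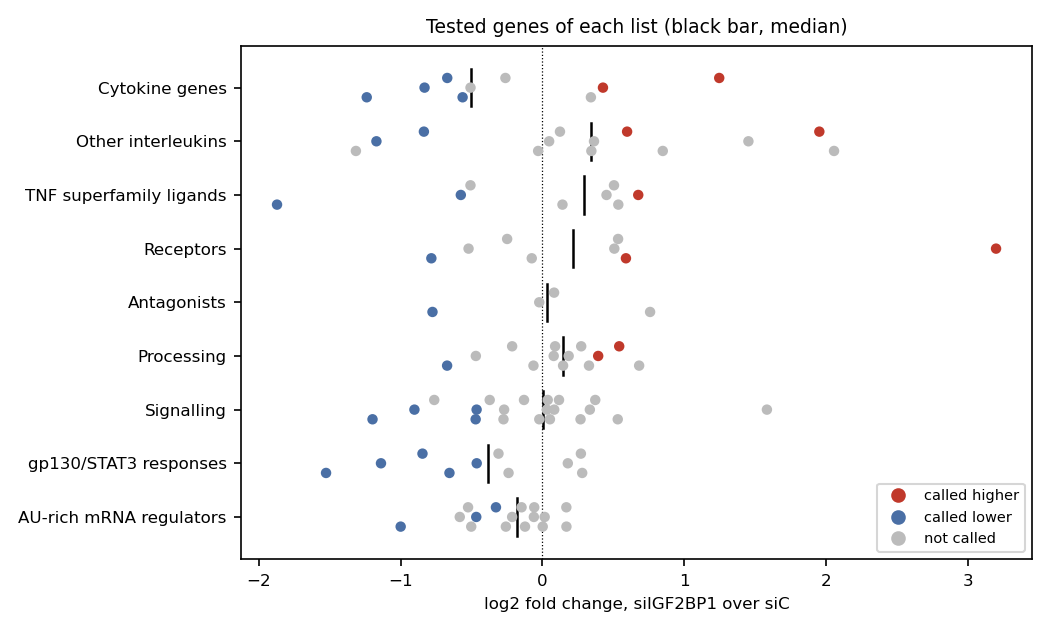
Log2 fold change (siIGF2BP1 over siC) of each tested gene in the cytokine set and 8 related lists; points are genes, coloured by call, vertical bars are list medians and the dotted line marks 0. The lists of signalling, gp130/STAT3 response and AU-rich mRNA regulator genes hold called falls and no called rise. The antagonist list holds 1 called fall (IL18BP) and no called rise.

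LIF was the called cytokine gene with the highest mean CPM, and the 3 protein-coding genes with the nearest profile were TOE1, POR and SUN1. Nearness is the root mean square distance of centred log2 CPM over the 6 libraries, which was 0.028 for TOE1, 0.032 for POR and 0.033 for SUN1, against log2 fold changes of -0.58, -0.58 and -0.52. With 6 libraries in 2 groups such a likeness mostly repeats the group difference and is a description.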

How the data were processed

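Poly(A) RNA of SAS cells was measured in 6 libraries. Per the labels' protocols, RNA was extracted with TRIZOL, captured on poly-T beads and made into strand-marked (dUTP) libraries. The authors deposited unnormalised read counts for each gene, with its length in bases. Per the submitters' processing notes, cutadapt 2.8, HISAT2 2.1.0, SAMtools 1.10, featureCounts 2.0.0 and hg38 were used; for the annotation release, strand setting and treatment of multi-mapped reads the entry is not given in the sources used here. Columns were matched by library name, and 0 were left unused.

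Genes passing filterByExpr (minimum count 10, minimum total 15) entered the quasi-likelihood test of edgeR 4.0.16 (R 4.3.3; TMM scaling, robust dispersions, 2 groups). DESeq2 1.42.0, limma 3.58.1 and the settings of the closing section were alternatives. SE was obtained by dividing the log2 fold change by the root of its F statistic. The fit was tested on simulated data. Replicates differed by more than counting noise (chi-square per degree of freedom 14.6 to 36.2). Sequence windows came from GENCODE 29 principal transcripts with the longest 3′ UTR. The members, lists and tests were chosen with earlier results of these data known. From each list the text names called genes, at most 5 per direction, and some of the 3 most abundant uncalled ones; CASP1, CSF3R, IL18RAP, KRT14, TP63 and the markers at 0 reads were named after their values were seen.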

Additional observations from a re-analysis of the deposited data

How the results depend on the processing

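The calls and directions of IL6, CSF1, IL1B, LIF and IL11 held with DESeq2, limma-voom, the replicate block, RLE scaling or none, either other count filter (none, or 5 CPM in 3 libraries) and in each fit without 1 library. The number of cytokine genes called higher was 1 to 2 without 1 library, since CSF2 lost its call in 5 of those 6 fits, where fewer samples remain; its adjusted p over all alternatives ran from 0.00995 to 0.163. The number called lower was 4 in each alternative. None of the 9 tested genes changed sign in these alternatives. Of the 26 called pathway genes named, 12 lost the call in at least 1 alternative, 4 of them also outside the fits without a library, and 0 changed sign. Over all genes, 529 to 828 were higher without 1 library and 702 to 1141 lower, against 918 and 975; the higher count was 587 without siIGF2BP1 library 3, 585 without siC library 1 and 529 without siC library 2. The share of higher among calls was 48.5%, and 63.2% with no scaling factor; the median of all genes then moved to 0.12. With GENCODE 29 lengths, chosen after seeing the data, the shares of IL6, LIF and IL11 moved as given above, and those of LIF came to overlap between groups. Whether the replicate numbers pair the libraries is not stated in the labels and was not settled here. Deviations from group means correlated across genes at 0.18, 0.09 and -0.07 for numbers 1 to 3. Library 1 of siIGF2BP1 correlated best with the control of its number, and libraries 2 and 3 with a differently numbered control. With 3 libraries per group such correlations cannot exclude pairing. With the replicate block 1158 genes were higher and 1273 lower, against 918 and 975 without it, and the cytokine genes had 2 and 4 calls. Counting limits apply to TNF, IL16 and IL1R2, and among others to PDGFRB, IL6ST, EBI3 and, in siIGF2BP1, IGF2BP1.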

Other observations

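The genes next to the cytokine loci were read after the values of the cytokines were known, taking the nearest protein-coding gene on each side in GENCODE 29. IL3, beside CSF2 on chromosome 5, had 0 reads in siIGF2BP1 and 0 in siC. OSM, beside LIF on chromosome 22, had 0 reads in siIGF2BP1 and 1 in siC. On either side of TNF on chromosome 6, LTA had 2 reads in siIGF2BP1 and 0 in siC, and LTB had 5 in siIGF2BP1 and 25 in siC. IL37, beside IL1B on chromosome 2, was tested and not called (57 reads in siIGF2BP1 and 59 in siC). P4HA2, a collagen prolyl hydroxylase gene on the other side of CSF2, fell while CSF2 rose (log2 fold change -0.59, edgeR adjusted p = 0.00613), and PSMD3 and MED24, which flank CSF3, were not called (-0.10 and -0.08).

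Over the matched 3′ UTRs of tested protein-coding genes, 941 held at least 1 nonamer TTATTTATT and 10754 held 0. Of genes with it 3.72% were called higher and 7.12% lower, and of genes without it 6.51% and 7.75%; their median log2 fold changes were 0.01 and 0.01. Genes with the nonamer had longer 3′ UTRs, with a median of 2804 bases, against 957. Among the tested cytokine genes, both that rose (IL11 and CSF2) held the nonamer, as did 2 of the 4 that fell (IL1B and LIF). Of the 3 not called (IL1A, CSF3 and IL18), 0 held it. These values are descriptions, and no test was made of them.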
